A study of Mus musculus with 3 samples.

Results

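The proteasome genes of mouse bone marrow pre-B cells are described here across 3 RNA-seq libraries. Members were all rows of the count table whose Entrez identifier maps to a protein-coding symbol made of Psma, Psmb, Psmc, Psmd, Psme or Psmf followed by a digit. The rule found 46 of 26286 rows. Of these, 44 encode core, cap, activator, inhibitor or assembly factor genes of the proteasome, and these are the proteasome genes below. The other 2, Psmc3ip and Psme3ip1, share only the prefix and encode other proteins. The symbol Psme2b also meets the rule but has no row in the table.

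All libraries belong to 1 group, so the data hold levels and their spread and no contrast of conditions. Every donor was bitransgenic, CAG-rtTA3 with TRE-GFP-shLuc.1309, in which doxycycline acts through the rtTA3 transactivator to switch on GFP together with a control hairpin. After 3 days of doxycycline, marrow cells of the phenotype GFP+ B220+ IgM- Kit- CD25+ were sorted, and the labels call them normal pre-B cells. The sources used here do not give age, sex or strain. Nothing states that each library is of a separate animal, so p-values measure only the spread between these samples, which may be technical in part, although the libraries were not all of 1 sex. In bulk RNA, fewer cells of a type and less RNA per cell cannot be told apart.

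The 26S proteasome degrades ubiquitin-tagged proteins. Its 20S core is a barrel of outer alpha rings and inner beta rings, and only the beta subunits Psmb5, Psmb6 and Psmb7 cut peptide bonds. In immune cells, and in other cells after interferon-gamma, the subunits Psmb8, Psmb9 and Psmb10 are built in at these places to give the immunoproteasome, which shapes the peptides shown on class I molecules. The 19S cap recognises, unfolds and feeds in substrates, and other caps of the Psme family open the barrel without ubiquitin.

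Several subunit genes have processed copies elsewhere in the genome, and this bears on how their reads could be counted. For each gene, the words of 31 bases in its protein-coding transcripts were looked up in the transcripts of all other genes (GENCODE M21, GRCm38). In 4 of the 44 genes at least 50% of the words also occurred in another gene: Psmb5 (71.7%), Psmb3 (66.8%), Psma5 (66.5%) and Psme2 (62.6%). For 3 of these, 120 coding bases from the middle are shown beside the gene that shares the most words, because a read that covers no differing base fits the gene and its copy equally. Capitals mark the bases that differ. The row whose identifier has the RefSeq symbol Psma5-ps is taken here as the processed copy of Psma5, Gm8394. Psma5 (chromosome 3) and Gm8394 (chromosome 10) differed at 8 of 726 coding bases, and coding bases 304 to 423 are printed.
Psma5: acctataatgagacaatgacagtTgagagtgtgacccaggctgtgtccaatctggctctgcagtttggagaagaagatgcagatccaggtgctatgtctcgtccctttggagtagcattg
Gm8394: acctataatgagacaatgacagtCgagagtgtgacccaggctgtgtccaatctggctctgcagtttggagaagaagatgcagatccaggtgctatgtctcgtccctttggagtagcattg
Psmb5 (chromosome 14) and the processed copy Gm3375 (chromosome 7) differed at 192 of 795 coding bases when laid side by side without gaps, a count that any insertion or deletion raises. Their coding bases 338 to 457, where 2 differ, are printed.
Psmb5: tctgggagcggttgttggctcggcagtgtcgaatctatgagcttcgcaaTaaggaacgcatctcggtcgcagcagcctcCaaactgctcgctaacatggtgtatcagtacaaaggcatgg
Gm3375: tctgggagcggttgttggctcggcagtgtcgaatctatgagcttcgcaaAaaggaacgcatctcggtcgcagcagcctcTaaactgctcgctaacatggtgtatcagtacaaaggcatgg
Psme2 (chromosome 14) and Psme2b (chromosome 11), annotated as protein-coding, differed at 5 of 720 coding bases, and coding bases 301 to 420 are printed.
Psme2: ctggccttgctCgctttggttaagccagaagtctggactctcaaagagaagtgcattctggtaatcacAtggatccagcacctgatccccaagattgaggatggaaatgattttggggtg
Psme2b: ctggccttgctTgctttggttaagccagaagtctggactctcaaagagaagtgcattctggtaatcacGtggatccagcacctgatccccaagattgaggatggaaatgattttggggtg
Psmb3 and the pseudogene AC114990.1 differed at 135 of 609 bases laid side by side without gaps, and at 0 of the 120 middle bases. How the authors counted a read that fits more than 1 place was not given in the sources used here. The read length was not given either, and longer reads than 31 bases would tell more positions apart.

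Library totals were 12418054, 12021576 and 32086649 counts for replicates 1, 2 and 3. Defining pre-B genes were high in each library: the receptor chain gene Cd79b had a mean of 1297 RPKM, the B lineage factor Pax5 257 RPKM and Il2ra, which encodes the sorted CD25, 89.3 RPKM. RPKM is reads per kilobase of gene length, scaled to the counts of the library. The libraries were not alike in every respect. Xist, transcribed from the inactive X of female cells, had 22609 counts in replicate 1 against 94 and 70 in the others, and the Y-linked Ddx3y had 1, 1950 and 4881 counts. Replicate 1 was thus of another sex than replicates 2 and 3. The 15 neutrophil markers summed to 1387, 1673 and 2462 RPKM, and the 16 mitosis and replication genes to 1907, 1552 and 2233 RPKM. Lyz2, which neutrophils and monocytes share, had 155.7, 186.3 and 227.5 RPKM. In the same list of monocyte, macrophage and dendritic markers, Itgam had 14.4, 15.9 and 15.96 RPKM. Cd68 had 7.51, 5.22 and 6.35 RPKM, and the monocyte receptor Csf1r had at most 2.09 RPKM. Flt3, Itgax, Cx3cr1 and Adgre1 had at most 1.06 RPKM. Erythroid markers summed to between 18.8 and 21.9 RPKM, led by Car2 at 14.03, 11.6 and 14.8 RPKM. Markers of T and NK cells summed to between 12.5 and 14.9 RPKM, from Gata3, the lowest, at most 0.029 RPKM, to Lck. Lck had 7.81, 9.48 and 9.32 RPKM, and Klrb1c was next at 3.36, 3.55 and 2.42 RPKM. Of 5 stroma and endothelium markers, Pecam1 had 79.1, 95.6 and 66.7 RPKM and Cdh5 at most 1.40 RPKM, Col1a1 had 8, 87 and 27 counts, Cxcl12 had 2, 0 and 2, and Pdgfra had none. Immediate early and heat shock genes were highest in replicate 3 and lowest in replicate 2 in 11 of the 11 tested. Prss34 of basophils had 2.38, 3.77 and 14.5 RPKM, and Il2ra 86.6, 108 and 73.1 RPKM. Their part in the levels below was not tested.

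Proteasome genes were well above the typical gene. Their median level lay 3.36 ± 0.06 (SD, n = 3) above that of all 17423 genes with a count, on the log2(RPKM + 0.5) scale, and 42 of 44 reached at least 1 RPKM in every library, against 42.4% of the 26286 genes in the table. The 44 genes together took 0.419 ± 0.005% of all counts. Summed RPKM was 2727, 2733 and 2776 in replicates 1, 2 and 3.

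**Figure D1:**
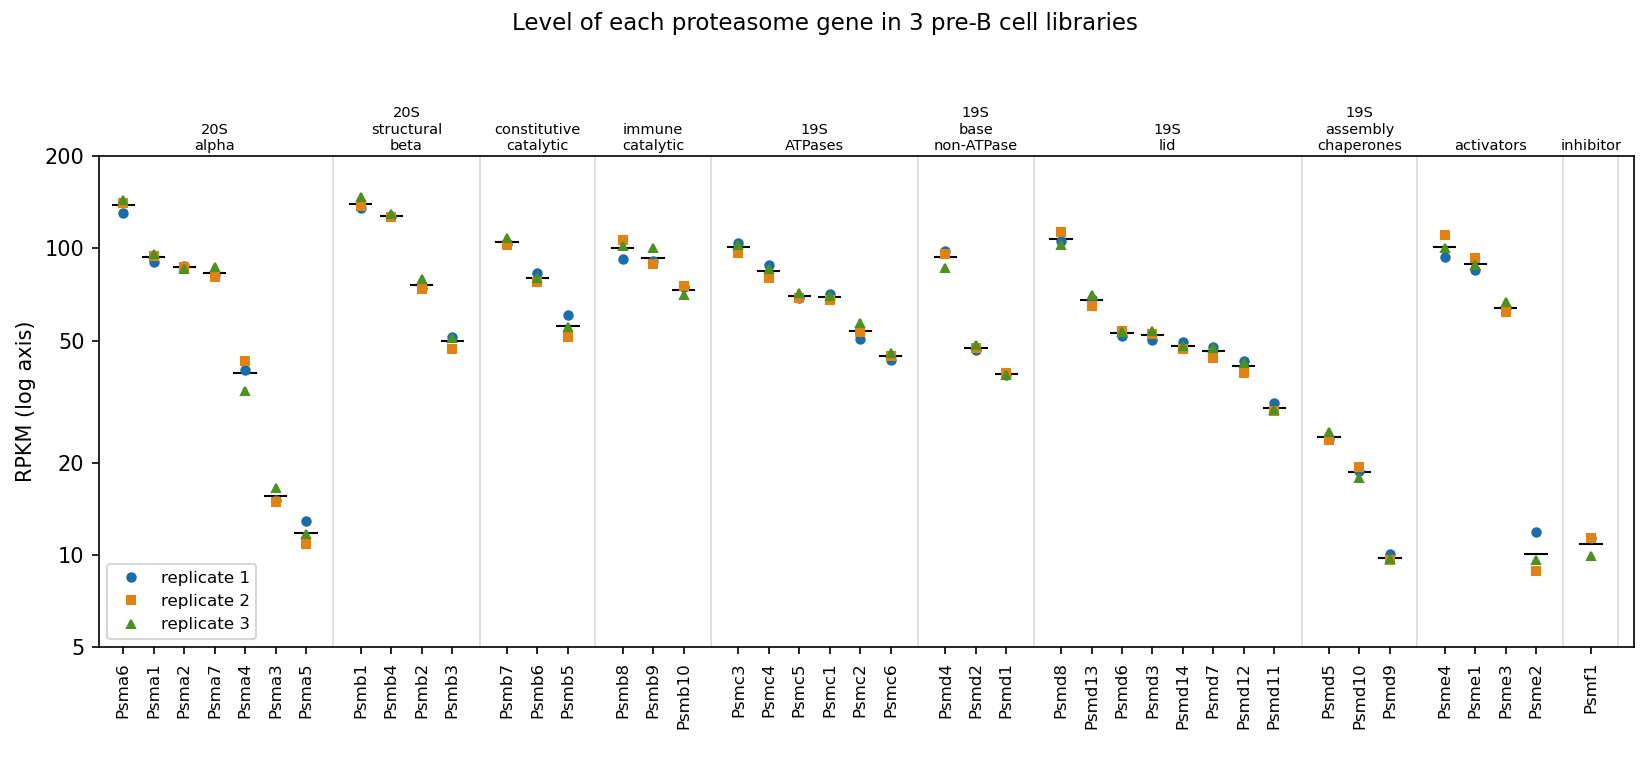
RPKM (log axis) of the 42 proteasome genes above 1 RPKM, by subunit group, with a point per library and a bar at the mean. The 3 points of a gene lie close together, and Psma3, Psma5 and Psme2 sit below the rest of their groups.

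The outer alpha ring is made of 7 subunits, and their transcripts covered an 11.7-fold range. Psma6 was highest, at 130.3, 140.3 and 143.6 RPKM in replicates 1, 2 and 3 (138.1 ± 6.90, SD, n = 3). Psma1 (93.7 ± 2.94), Psma2 (86.8 ± 0.942) and Psma7 (83.1 ± 3.37) followed. The library values of Psma2 and Psma7 overlapped, and those of Psma1 lay above both. Psma4 was lower, at 40.3, 42.8 and 34.3 RPKM. Psma3 had 15.1, 14.9 and 16.6 RPKM, and Psma5 had 12.9, 10.9 and 11.7 RPKM. These 3 low genes are the alpha genes with the largest part of their words in other genes, at 35.5%, 28.0% and 66.5%, against at most 8.48% for the other 4. The row of the Psma5 copy held 46.2, 44.5 and 47.0 RPKM, far above Psma5 itself in every library. Whether those counts came from Psma5 transcripts was not tested.

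The beta subunits without catalytic activity were led by Psmb1, at 135.2, 136.9 and 146.7 RPKM, and Psmb4, at 127.2, 126.3 and 129.0 RPKM. Their libraries did not overlap. With the deposited gene lengths Psmb1 had the highest mean of all proteasome genes, and its values overlapped those of Psma6. Psmb2 stood at 76.0 ± 3.21 RPKM. Psmb3 was lowest, at 51.3, 46.8 and 51.02 RPKM, and has the largest part of its words in copies of this group (66.8%).

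**Figure D2:**
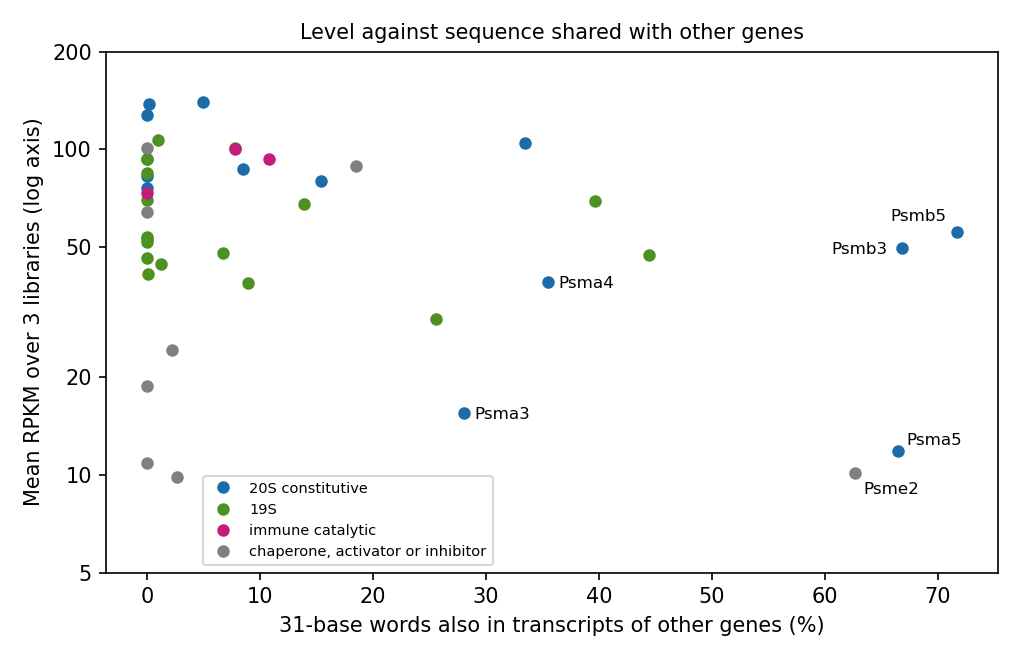
Mean RPKM (log axis) of the 42 proteasome genes above 1 RPKM against the percent of their 31-base words found in transcripts of other genes. No gene with at least 50% of words shared exceeds 55.8 RPKM, while genes with few shared words run from 9.80 to 139.6 RPKM.

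The question posed by the catalytic subunits is how far pre-B cells carry transcripts of the immune form. Immune and constitutive genes stood at like levels. Of the constitutive genes, Psmb7, the trypsin-like subunit, had 103.2, 102.3 and 108.4 RPKM, Psmb6, the caspase-like subunit, 82.9, 77.6 and 80.1 RPKM, and Psmb5, the chymotrypsin-like subunit, 60.7, 51.4 and 55.3 RPKM. Of the immune genes, Psmb8 had 92.5, 106.3 and 101.5 RPKM, Psmb9 90.9, 88.8 and 99.98 RPKM, and Psmb10 74.6, 75.3 and 70.2 RPKM. Among the 6, the library values of Psmb7, Psmb8 and Psmb9 overlapped in a chain at the top. Psmb6, then Psmb10, then Psmb5 followed with no overlap between neighbours.

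Within each library every pair kept its order. Psmb8 exceeded Psmb5 by 0.84 ± 0.22 on the log2(RPKM + 0.5) scale, 1.79-fold (n = 3). Psmb9 exceeded Psmb6 by 0.21 ± 0.09, 1.16-fold. Psmb10 was lower than Psmb7 by 0.51 ± 0.10, 0.703-fold. The mean of the 3 pairs was 0.18 ± 0.09, and its sign was positive in all 3 libraries. With 3 libraries the smallest two-sided p of the exact sign-flip permutation test is 0.25, so none of the 10 planned subunit differences could pass 0.05, and each gave p = 0.25 (Benjamini-Hochberg adjusted 0.25). By RPKM, immune transcripts made up 64.2 ± 3.56% of the Psmb8 and Psmb5 pair, 53.7 ± 1.64% of the Psmb9 and Psmb6 pair and 41.2 ± 1.67% of the Psmb10 and Psmb7 pair, and 52.6 ± 1.40% over all 6 genes.

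These orders depend on how reads of copies were counted. If no read from words shared with a copy was counted, and gene lengths are reduced to match, the level of Psmb5 becomes 162 ± 13.7 RPKM and that of Psmb6 94.7 ± 3.16 RPKM, while Psmb8 and Psmb9, with no such words, stay at 100.1 and 93.2 RPKM. The difference of Psmb8 and Psmb5 then turns to -0.69, that of Psmb9 and Psmb6 to -0.024 and the mean of the pairs to -0.43, while that of Psmb10 and Psmb7 is -0.57. Without length scaling, as CPM, Psmb9 minus Psmb6 is -0.15. The order within the Psmb10 and Psmb7 pair was the same under each of these settings, whereas that of the other pairs was not.

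**Figure D3:**
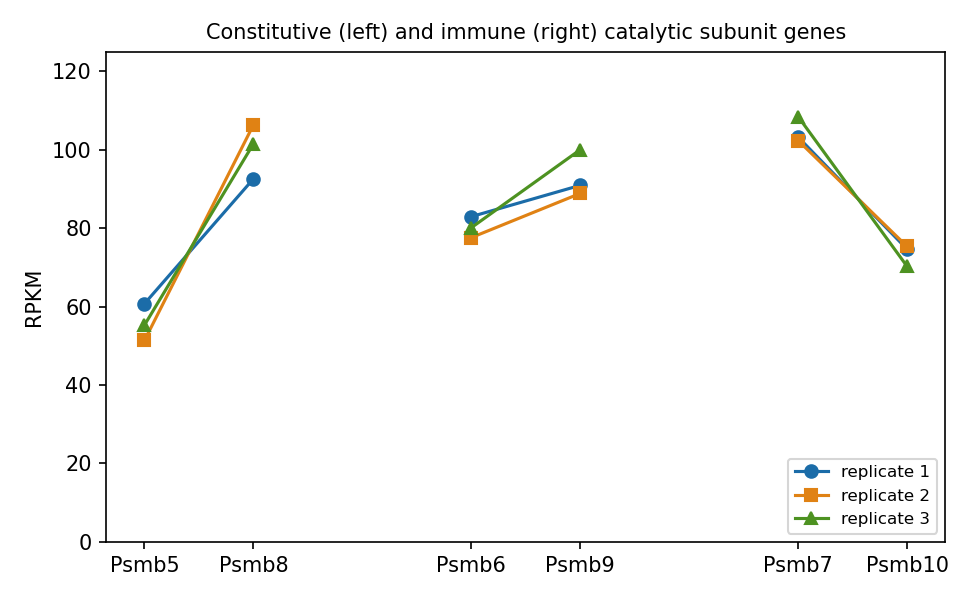
RPKM of the constitutive catalytic genes (left of each pair) and the immune genes of the same place in the barrel (right), with a line per library. Lines rise from Psmb5 to Psmb8 and from Psmb6 to Psmb9 and fall from Psmb7 to Psmb10 in all 3 libraries, with the deposited gene lengths.

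In the RefSeq gene order, Psmb9 and Psmb8 lie beside the peptide transporter genes Tap1 and Tap2 on chromosome 17, with Tap1 between them. Tap1 stood at 69.5, 68.7 and 71.7 RPKM and Tap2 at 29.1 ± 1.79 RPKM, both below Psmb8 and Psmb9 in every library. Psmb9 had 10.8% of its words in other genes, with Tap1 holding the most, and Psmb7 had 33.5%, with its neighbour Nek6 holding the most. The 250 bases before the RefSeq start were available for 37 of the 44 genes (GRCm38.p6), and 6 short motifs were looked up there on both strands. The windows of Psmb8, Psmb5 and Psmb6 are shown since, among the catalytic genes with a window, they hold a GAS or an antioxidant response word. Matches of the other motifs are not marked. Psmb8 (chr17:34197945-34198194, plus strand) holds a GAS word, TTCNNNGAA, the form bound by STAT factors. Psmb5 (chr14:54617996-54618245, minus strand) and Psmb6 (chr11:70525107-70525356, plus strand) each hold an antioxidant response word, TGACNNNGC, the form bound by NRF1 and NRF2. Capitals mark these words.
Psmb8: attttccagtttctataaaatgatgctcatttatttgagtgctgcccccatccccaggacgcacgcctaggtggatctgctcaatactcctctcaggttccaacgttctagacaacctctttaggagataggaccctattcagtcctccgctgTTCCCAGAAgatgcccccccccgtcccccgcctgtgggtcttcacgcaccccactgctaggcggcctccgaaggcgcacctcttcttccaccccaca
Psmb5: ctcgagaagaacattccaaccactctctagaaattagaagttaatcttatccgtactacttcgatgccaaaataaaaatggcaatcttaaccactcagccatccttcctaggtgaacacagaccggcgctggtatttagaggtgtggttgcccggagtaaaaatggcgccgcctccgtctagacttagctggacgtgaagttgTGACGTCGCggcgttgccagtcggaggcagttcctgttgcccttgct
Psmb6: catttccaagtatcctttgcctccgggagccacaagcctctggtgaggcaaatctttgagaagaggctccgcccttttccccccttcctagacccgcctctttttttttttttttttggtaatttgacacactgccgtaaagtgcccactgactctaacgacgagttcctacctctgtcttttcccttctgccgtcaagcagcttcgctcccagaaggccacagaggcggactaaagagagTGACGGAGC
A match is a description and not a site of binding. The GAS word occurred in 1 of 37 proteasome genes (2.7%) and 8.13% of 27025 genes, and the antioxidant word in 5 (13.5%) and 11.5%. The interferon response word (GAAA, 2 free bases, GAAA) was in 3 (8.11%, against 3.46%), in none of the catalytic genes with a window. CCAAT was in 14 (37.8%, against 37.5%), and a loose NF-kappaB form (GGG, 5 free bases, CC) in 20 (54.1%, against 48.7%). Psmb9 held 5 matches of this loose form and 1 of CCAAT, and Psmb6 held 1 match of the loose form. The ETS word CCGGAA was in 16 of 37 (43.2%), against 13.6% of all genes, among them Psmc1, Psmc2, Psmc5, Psmd2, Psmd4 and Psme4. For each motif, all genes means every gene with a window, expressed in these cells or not. The share among expressed genes alone was not taken. Matches of different motifs could overlap.

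By their medians the 19S genes were lower than those of the 20S core, while the ranges overlapped. Mean levels ran from 30.2 to 107.1 RPKM in the cap and from 11.8 to 139.6 RPKM in the constitutive core. The median of the 17 cap subunits was below that of the 14 constitutive core subunits by 0.69, 0.56 and 0.62 in replicates 1, 2 and 3 on the log2(RPKM + 0.5) scale, a mean of -0.63 ± 0.06. The sign turned with CPM (0.43), since cap genes are longer. With lengths reduced for copies it was -0.79.

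The 6 ATPases form the ring that unfolds substrates. Psmc3 (100.8 ± 3.83 RPKM) and Psmc4 (84.7 ± 4.12) were highest, then Psmc5 (69.8 ± 1.59), Psmc1 (69.4 ± 1.58) and Psmc2 (53.7 ± 3.09), and Psmc6 was lowest at 44.5 ± 1.06 RPKM. With the deposited lengths Psmc5 and Psmc1 did not differ beyond their spread. Psmc1 has 39.7% of its words in copies, and with lengths reduced for copies it is the highest ATPase gene, at 115.1 ± 2.62 RPKM. The 6 genes ran over 2.27-fold with the deposited lengths, the narrowest range of the groups of 6 or more subunits.

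Of the other base subunits, the ubiquitin receptor Psmd4 had 97.8, 96.2 and 86.4 RPKM. With the deposited lengths the scaffolds Psmd2 (47.3 ± 0.873 RPKM, with 44.4% of its words in other genes) and Psmd1 (38.9 ± 0.301 RPKM) were lower in every library. With lengths reduced for copies Psmd2 was at 85.1 ± 1.57 RPKM. Psmd1 varied least of all proteasome genes, at 38.7, 39.2 and 38.7 RPKM.

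In the lid, Psmd8 stood alone at the top, at 105.9, 113.2 and 102.2 RPKM, followed by Psmd13 at 68.0 ± 3.03 RPKM. Psmd6 (53.0 ± 0.978), Psmd3 (52.1 ± 1.79), Psmd14 (48.2 ± 1.34) and Psmd7 (46.3 ± 2.04) lay close together. Psmd14 encodes the enzyme that removes ubiquitin chains from substrates. Psmd12 (41.5 ± 2.01) and Psmd11 (30.2 ± 1.08) were lowest, and Psmd11 has 25.6% of its words in other genes.

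The chaperones that assemble the cap were all below the subunits of the finished cap. Psmd5 had 23.9, 23.7 and 25.2 RPKM, Psmd10, also known as gankyrin, 18.9, 19.4 and 17.9 RPKM, and Psmd9 10.1, 9.63 and 9.72 RPKM. Their library values did not overlap. Psmd10 is on the X chromosome, and its value in replicate 1, the library with high Xist, lay between those of the other libraries.

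Among the caps that act without ubiquitin, Psme4, which encodes the nuclear activator PA200, was highest. It had 93.4, 110.2 and 100.02 RPKM, and exceeded Psme3, the nuclear activator PA28-gamma (63.8, 61.8 and 66.6 RPKM), by 0.65 ± 0.15 on the log2 scale, 1.57-fold. By raw counts Psme4 led all proteasome genes, with 7472, 8507 and 20733 counts over a length of 6442 bases. Psme1, the alpha chain of the interferon-inducible PA28, had 84.9, 92.7 and 88.3 RPKM. It exceeded Psme3 by 0.46 ± 0.10, and with CPM was lower by 0.95 (-0.95).

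Psme2, the beta chain that assembles with Psme1 into 1 ring, had only 11.9, 8.88 and 9.61 RPKM. It was below Psme1 by 3.08 ± 0.27 on the log2 scale in these libraries, 0.118-fold. With lengths reduced for the words shared with Psme2b and other copies, Psme2 was at 27.1 ± 4.16 RPKM and Psme1 at 108.8 ± 4.80 RPKM, a difference of -1.996. So the order was the same by either length, while the log2 difference moved from -3.08 to -1.996. The inhibitor Psmf1, PI31, had 11.4, 11.4 and 9.91 RPKM, lowest in replicate 3.

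The members known from single tissues were near or below the floor of 3 counts. Psma8, the alpha subunit of the testis, had 2, 4 and 10 counts, or 0.095, 0.197 and 0.184 RPKM, against floors of 0.143, 0.148 and 0.055 RPKM, and its difference from Psma7 was -6.99 ± 0.12 on the log2(RPKM + 0.5) scale, a value set in part by the pseudocount (-8.35 with 0.1). Psmb11, the beta subunit of thymic cortical epithelium, had 0, 0 and 1 counts, and 3 counts in the smallest library would be 0.059 RPKM. Its 1 count over the 3 libraries has an exact 95% Poisson interval of 0.0253 to 5.57 counts, which covers counting error only. Its difference from Psmb5 was -6.804 ± 0.12 with a pseudocount of 0.5 and -9.09 with 0.1.

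Genes that work with the proteasome but carry other names were read from 4 lists. Of 25 genes for further subunits, assembly factors and shuttles, 24 had a row, all above 1 RPKM in every library. The small cap subunit Sem1 (156.3 ± 10.9 RPKM) was highest, then the core maturation factor Pomp (87.2 ± 5.61) and the unfoldase Vcp (71.1 ± 1.87), while the core assembly chaperone Psmg1 was lowest (8.07 ± 1.73). The list median was 26.0 RPKM, against 59.9 RPKM for the 44 proteasome genes and 5.46 RPKM for all genes with a count. Of 7 genes for ubiquitin and its activation, Ubb led at 1168 ± 51.8 RPKM, followed by Uba1 (120.2 ± 6.54) and Rps27a (99.8 ± 11.8), and Uba6, an alternative activating enzyme, was lowest (9.39 ± 0.523). Class I loading genes had a median of 69.9 RPKM, led by B2m (1382 ± 86.6), H2-D1 (925 ± 56.8) and H2-K1 (561 ± 39.2), with the trimming enzyme Erap1 lowest (22.6 ± 1.56). Of 16 known regulators of proteasome genes, Irf4 (239.6 ± 15.6), Nfya (78.1 ± 11.3) and Irf8 (74.7 ± 10.9) were highest and the class I activator Nlrc5 lowest (14.3 ± 1.10).

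The spread between libraries was then set against counting noise. Of the 42 proteasome genes that passed the filter on low counts (Psma8 and Psmb11 did not), 12 spread wider over the libraries than counting alone would give (Poisson chi-square test, adjusted p under 0.05 by Benjamini-Hochberg over all 12147 genes tested), against 54.6% of all genes tested. Among the 8846 genes whose summed counts lay in the range of the 42, between 550 and 36712, the share was 61.6%. The median coefficient of variation of RPKM was 4.14% for the proteasome genes, 9.76% for all genes tested and 8.08% for the genes in that range. Without replicate 3, the deepest library, 4 of the 42 were called, and 3145 of all genes.

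The largest call by p was Psme4 (adjusted p = 6.83e-24), the member with the most counts, and so the least counting error. Psma4 (adjusted p = 5.93e-05) and Psmd4 (7.81e-05) were next, both lowest in replicate 3. The immune subunits Psmb8 (0.00172) and Psmb9 (0.00567) and the constitutive Psmb5 (0.0279) were also called, while Psmb10, Psmb6 and Psmb7 were not (0.105, 0.403 and 0.189). The remaining calls were Psmd8, Psmc2, Psmb1, Psma6, Psmf1 and Psme3. Psmb8 was highest in replicate 2 and lowest in replicate 1, whereas Psmb5 was highest in replicate 1 and lowest in replicate 2, so that the immune share of this pair ran from 60.4% in replicate 1 to 67.4% in replicate 2.

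Replicate 3 differs from the others in the labelled CASAVA version, 1.8.0 against 1.8.2, and in depth. The library and the version cannot be told apart. One arm of this comparison is a single library, so the spread comes from replicates 1 and 2 alone, which differ in sex, and a count of 0 does not show that the genes were stable. In edgeR's quasi-likelihood test of replicate 3 against replicates 1 and 2, 0 of the 42 proteasome genes were called higher and 0 lower, against 0.0576% and 0.0165% of all genes. At an unadjusted p under 0.05 the counts were also 0 and 0, against 5.01% and 4.62%, and DESeq2 gave 0 at either threshold. Log2 differences ran from -0.28 (Psma4, SE 0.14) to 0.15 (Psmb9, SE 0.12), with a median of 0.03 against -0.01 for all genes. In the lists of partners, class I loading and regulators 0 genes passed the adjusted threshold, and 3 had an unadjusted p under 0.05, each higher in replicate 3: Calr, Irf8 and Akirin2.

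Some gene lists moved between these libraries more than the proteasome genes, and others did not. Mitosis and replication genes shifted from each gene's mean over the libraries by a median of 0.01, -0.28 and 0.26 in replicates 1, 2 and 3 (log2 CPM), and all 16 were highest in replicate 3. Neutrophil markers shifted by -0.35, -0.13 and 0.41. Immediate early and heat shock genes shifted by -0.08, -0.45 and 0.51. Proteasome genes shifted by -0.00, -0.03 and 0.02, their regulators by 0.02, -0.01 and -0.02, and class I loading genes by 0.03, -0.03 and -0.05. A small median shift was thus not particular to the proteasome. The list of further subunits, assembly factors and shuttles moved more, by 0.00, -0.08 and 0.07. So did the genes for ubiquitin and its activation, by 0.07, -0.07 and -0.00. Of the 42, 15 were highest in replicate 1, 10 in replicate 2 and 17 in replicate 3, against 28.4%, 36.5% and 35.1% of all genes tested. Lowest in replicate 1 were 13, against 27.6% of all genes, lowest in replicate 2 were 22, against 36.3% of all genes, and lowest in replicate 3 were 7, against 36.1%. No test was made of these counts. The genes that share only the prefix had 12.2, 9.50 and 12.2 RPKM (Psmc3ip, a recombination protein of meiosis) and 47.8, 49.2 and 43.4 RPKM (Psme3ip1, a partner of Psme3). Neutrophils and dividing cells also express proteasome genes, and their part in the levels was not tested.

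**Figure D4:**
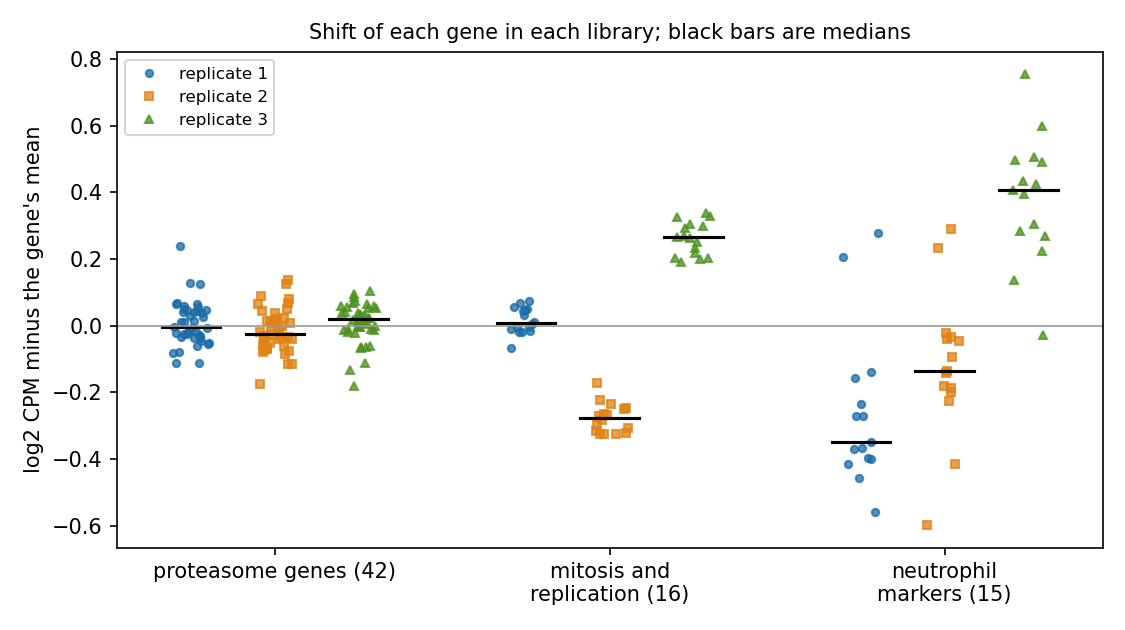
Log2 CPM of each gene in each library minus the gene's mean over the 3 libraries, for 42 proteasome genes, 16 mitosis and replication genes and 15 neutrophil markers, with black bars at the medians. Proteasome medians lie between -0.03 and 0.02, while the medians of the other lists shown reach 0.26 and 0.41 in replicate 3.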

How the data were processed

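Raw read counts per Entrez gene and a gene length in bases were deposited by the authors for 3 libraries of 1 group. The submitters' processing notes name featureCounts, CASAVA and the build mm9. Aligner, annotation, strand and the rule for reads with several matches were not given in the sources used here. Symbols came from RefSeq (GRCm38.p6) by identifier, for 24176 of 26286 rows, and of 190 list genes 188 had a row. The fits used edgeR 4.0.16, with DESeq2 1.42.0 as an alternative (R 4.3.3). TMM factors were 1.0003, 0.9969 and 1.0028 for replicates 1, 2 and 3. RPKM used the deposited length, and log2 levels a pseudocount of 0.5. filterByExpr (minimum count 10, minimum total 15) kept 12147 genes. Library shifts used log2 CPM with a prior count of 2. Totals from 12021576 to 32086649 make replicate 3 the most precise library.

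Named are all catalytic, activator, inhibitor, chaperone and tissue-restricted genes, the highest and lowest 2 of each larger subunit group (all members of groups up to 7), and the highest 3 and the lowest of each partner list. Other subunits and calls were named after their values were seen. Members and lists were chosen with earlier results of these data known. Tested on simulated counts, the test of replicate 3 against replicates 1 and 2 recovered 94 of 100 genes changed 4-fold and 87 of 100 changed 2-fold, with 8 false calls over 12249 genes. The Poisson test made 0 false calls over 12331 genes. Figures were drawn with matplotlib 3.10.9.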

Additional observations from a re-analysis of the deposited data

How the results depend on the processing

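The median level of the proteasome genes above that of all genes, 3.36, was 3.42 with TPM, 2.82 with CPM, 3.60 with lengths reduced for words in copies and 3.53 without the 4 genes with at least 50% of words shared. The last 2 settings were chosen after seeing the data. Signs turned with CPM for Psmb9 minus Psmb6 (-0.15), Psme1 minus Psme3 (-0.95) and the 19S minus the 20S median (0.43), and the CPM levels of Psme2 and Psmc3ip fell below the median of all genes (-0.18 and -0.11). With reduced lengths they turned for Psmb8 minus Psmb5 (-0.69), Psmb9 minus Psmb6 (-0.024) and the mean of the pairs (-0.43). The 10 differences kept their signs with TPM, DESeq2 size factors, pseudocounts of 0.1 and 1 and without each replicate.

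Leaving out 1 replicate gave between 3145 and 5590 genes over Poisson noise, and between 4 and 9 of the proteasome genes. Over all genes, replicate 3 against the others gave 7 calls higher and 2 lower, and 21 and 15 with DESeq2, 19 and 4 without scaling beyond totals, and 0 and 0 with every gene with a count tested. The proteasome genes gave 0 in each of these. With 1 replicate left out, which leaves 2 libraries to choose from, between 20 and 24 proteasome genes were highest in replicate 1, between 12 and 18 in replicate 2 and between 22 and 30 in replicate 3. Without replicate 1 or 2 the contrast of replicate 3 has no residual degrees of freedom and gave fold changes only. No paired analysis was possible because the libraries form 1 group. Near 1 count, as for Psmb11, depth limits what can be seen.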
